A study of Mus musculus with 16 samples.

Results

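The 10 genes described here encode proteins that limit or edit inflammatory signalling downstream of Toll-like and TNF receptors: Tnfaip3 (A20), Tnip1 (ABIN1), Cyld, Tank, Malt1, Zc3h12a (regnase-1), Zfp36 (tristetraprolin), Zfp36l1, Irak3 (IRAK-M) and Tnfaip2. They were picked by symbol, through the gene names that the scanner files give to each probe, and are 10 of the 17467 features that could be measured. The array carried 19 probes for them and 18 were kept, the third Tank probe being too dim. For a gene with several probes the brightest stands for the gene, and the others are given beside it.

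Expression was measured in peritoneal macrophages of male BALB/cByJ-Lpin1fld/J mice, on single-colour arrays, in 4 groups of 4 arrays. The groups were cells from mice labelled fld (fatty liver dystrophy, a mutation of the lipin-1 gene Lpin1) with lipopolysaccharide (LPS, a bacterial ligand of TLR4), cells labelled fld left untreated, cells of control mice with LPS, and untreated control cells. LPS was given at 100 ng/ml for 5 h in medium without serum, in which the untreated cells were also kept. The control animals were heterozygotes of the same strain, so they carry the mutant allele too. The mutation is present in every tissue of the mouse, and the cells were those of the peritoneum that adhered to plastic. The study asked how lipin-1 affects gene expression during TLR4 stimulation. Nothing in the labels ties each array to a mouse of its own, and if arrays of a group share an animal the p-values measure technical spread.

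LPS binding to TLR4 recruits MyD88 and the IRAK kinases, and ubiquitin chains built by TRAF6 and its partners then activate the IKK complex, which releases NF-kB. A20 and CYLD take ubiquitin chains off the proteins of this route or block their assembly, ABIN1 brings A20 to its substrates, and TANK restrains TRAF signalling and serves as a scaffold for the kinases TBK1 and IKK-epsilon. Regnase-1, an RNase, and the zinc finger proteins tristetraprolin and ZFP36L1 shorten the life of cytokine mRNAs. IRAK-M is an IRAK family member that lacks kinase activity and dampens signalling at the receptor in macrophages. The label of brake does not suit all 10 genes equally: MALT1 is a scaffold and protease that promotes NF-kB signalling and cleaves A20, CYLD and regnase-1, and TNFAIP2 is known as a protein induced by TNF and LPS and not as an inhibitor of NF-kB.

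Levels below are log2 processed intensities minus the 75th percentile of their array, which is therefore 0. That percentile was 189 to 627 in intensity, and 58.7% to 65.4% of spots per array passed the scanner's test of being well above background. It was 386, 251, 411 and 189 in the LPS arrays labelled fld, and 335 to 627 in the other groups. Arrays of that group also agreed least, with a lowest correlation of 0.960, against 0.984 to 0.985 in the other groups. Their median SD over features was 0.26, against 0.19 to 0.20 in the other groups. Since each of the 4 slides held a single group, effects of slide and of group cannot be told apart. Levels of Lpin1 on its 3 dimmer probes went against the label of both arrays called fld replicate 4: their array means were -3.03 and -1.62, against -6.72 to -5.46 in the other 6 arrays labelled fld and -3.53 to -2.86 in the 8 control arrays. On the brightest Lpin1 probe these 2 arrays were at -0.33 with LPS and -0.63 untreated, and the other 6 arrays labelled fld (-2.15 to -1.40) overlapped the control arrays (-1.81 to -1.30). Results between genotypes are therefore given with and without these 2 arrays. All 8 macrophage markers (such as Adgre1 and Csf1r) were well above background on every array, as were the 4 B cell and 4 mast cell markers. Of 4 mesothelial markers, Msln was so on 16 arrays, Krt19 on 15, Upk3b on 3 and Lrrn4 on 0. In bulk RNA, fewer cells of a type and less RNA per cell cannot be told apart.

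After LPS, 7 of the 10 genes rose and 1, Cyld, fell in cells labelled fld, and 7 rose and 1, again Cyld, fell in control cells, by limma with Benjamini-Hochberg adjustment over all features (adjusted p under 0.05). Over all features, 39.6% passed this test in cells labelled fld (21.6% being higher with LPS) and 29.4% in control cells (14.5% higher). The median log2 change of the 10 genes was 1.09 in cells labelled fld, against 0.06 over all features, and 1.05 in control cells, against 0.03 over all features. Tnfaip3, Tnip1, Zc3h12a, Zfp36l1, Irak3 and Malt1 rose in both genotypes. Zfp36 passed only the test in cells labelled fld and Tank only that in control cells. For neither gene did the difference of the LPS responses between genotypes pass (adjusted p = 0.431 and 0.265 by limma). Tnfaip2 passed in neither. With each array scaled to its median in place of its 75th percentile, the median of all features in cells labelled fld shifted to -0.18 and the features called there were 1965 higher and 4665 lower, in place of 3778 higher and 3142 lower, while 8 of the 10 genes passed in these cells under every setting run. Without the 2 arrays labelled fld replicate 4, Zfp36 also passed in control cells (adjusted p = 0.0459 by limma), since the estimate of spread is shared by all groups, and the count in control cells became 8 rises and 1 fall. It also passed there with normexp background. Summed levels of the 3 neutrophil markers on the array (linear scale, 1 being the 75th percentile) moved with LPS as well: they were 18.8 to 26.4 in LPS-treated and 1.21 to 1.57 in untreated cells labelled fld, and 8.71 to 15.3 in LPS-treated and 1.20 to 2.22 in untreated control cells. Those of the 4 B cell markers were 59.1 to 84.1 with LPS and 90.5 to 127 without in cells labelled fld, and 78.5 to 87.4 with LPS and 85.7 to 153 without in control cells, overlapping in control cells only. Those of the 4 mast cell markers were 10.4 to 31.1 with LPS and 7.39 to 25.2 without in cells labelled fld, and 21.2 to 37.2 with LPS and 4.39 to 24.2 without in control cells, overlapping in both genotypes. The neutrophil sum mostly follows S100a8, whose mean log2 level over all arrays was 2.07, against -2.44 for S100a9 and -2.50 for Mpo. A spot set to missing as an outlier adds nothing to a sum, which can lower the low end of any of these ranges. The part of all these markers in the results was not tested.

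**Figure D1:**
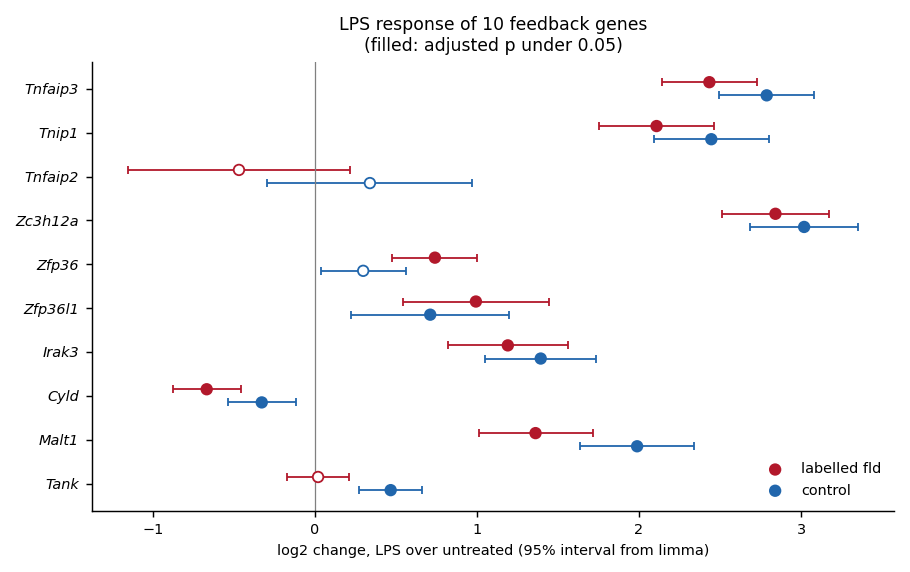
Log2 change with LPS over untreated for each of the 10 genes, in cells labelled fld (upper mark of each pair) and in control cells (lower mark), with 95% intervals from limma; filled marks have an adjusted p under 0.05. Zc3h12a, Tnfaip3 and Tnip1 lie above 2 in both genotypes, Cyld lies below 0 in both, and the intervals of Tank in cells labelled fld and of Tnfaip2 in both genotypes cross 0.

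The promoters of the genes with the largest rises, of Cyld, which fell, and of Tank, whose call differed between genotypes, are printed because they show how unlike these starts are in letters for NF-kB and AP-1, the families of factors that LPS activates. Each line is RefSeq sequence of build GRCm38.p6, from 250 bases before to 50 bases after the annotated start, read 5′ to 3′ on the gene's strand, with matches to the NF-kB consensus and to the AP-1 motif TGANTCA on either strand in capitals.
Tnfaip3 promoter, chr10:19015361-19015660, minus strand: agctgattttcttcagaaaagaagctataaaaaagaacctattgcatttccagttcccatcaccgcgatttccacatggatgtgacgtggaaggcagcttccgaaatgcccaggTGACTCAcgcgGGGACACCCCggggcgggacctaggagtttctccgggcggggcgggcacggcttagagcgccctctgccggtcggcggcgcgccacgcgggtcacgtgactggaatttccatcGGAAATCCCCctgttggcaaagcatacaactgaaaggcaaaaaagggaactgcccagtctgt
Tnip1 promoter, chr11:54962891-54963190, minus strand: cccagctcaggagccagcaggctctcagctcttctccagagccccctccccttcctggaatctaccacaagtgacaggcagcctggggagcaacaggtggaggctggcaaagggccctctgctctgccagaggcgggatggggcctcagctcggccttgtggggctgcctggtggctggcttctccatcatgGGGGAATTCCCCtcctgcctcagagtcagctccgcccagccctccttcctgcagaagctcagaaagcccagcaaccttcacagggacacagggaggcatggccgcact
Zc3h12a promoter, chr4:125127832-125128131, minus strand: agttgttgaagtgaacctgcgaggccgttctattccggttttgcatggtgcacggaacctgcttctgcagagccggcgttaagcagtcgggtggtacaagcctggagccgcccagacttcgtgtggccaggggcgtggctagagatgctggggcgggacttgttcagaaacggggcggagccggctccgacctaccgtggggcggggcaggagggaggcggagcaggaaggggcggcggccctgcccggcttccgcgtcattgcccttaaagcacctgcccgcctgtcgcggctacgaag
Cyld promoter, chr8:88696778-88697077, plus strand: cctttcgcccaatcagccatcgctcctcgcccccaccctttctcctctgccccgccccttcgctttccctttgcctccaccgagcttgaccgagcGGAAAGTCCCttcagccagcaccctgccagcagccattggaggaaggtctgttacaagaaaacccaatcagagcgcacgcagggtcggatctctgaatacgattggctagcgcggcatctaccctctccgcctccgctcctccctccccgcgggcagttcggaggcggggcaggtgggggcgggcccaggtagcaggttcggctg
Tank promoter, chr2:61592847-61593146, plus strand: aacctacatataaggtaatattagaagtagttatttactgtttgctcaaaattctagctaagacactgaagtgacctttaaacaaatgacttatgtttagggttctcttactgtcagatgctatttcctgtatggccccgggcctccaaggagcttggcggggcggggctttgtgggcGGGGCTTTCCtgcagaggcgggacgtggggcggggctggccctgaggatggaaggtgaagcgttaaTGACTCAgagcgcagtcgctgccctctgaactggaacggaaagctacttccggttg
Windows were available for 9 members (14 windows, some genes having several starts). The NF-kB consensus was found in 5 of the 14 windows and in 4.51% of all 32851 promoter windows of the same length. Those 5 windows belong to 4 of the 9 members, Tnfaip3, Tnip1, Cyld and Tank. AP-1 letters were found in 4 of the 14 windows, those of 3 members (Tnfaip3, Tank and Zfp36l1), and in 7.81% of all windows. Both counts of windows include 2 overlapping Tank windows that hold the same matches. In Tnfaip3 both NF-kB matches, GGGACACCCC and GGAAATCCCC, and the AP-1 match TGACTCA lie in the first of its 2 windows, with first bases 125, 12 and 136 bases before the start. In Tnip1 the 3 matches overlap and make the single run of capitals, and in Tank both matches recur in 1 other window that overlaps the printed one. Zc3h12a, with the largest rise of the 10 in either genotype, held no match in its window, and Cyld, which fell, held 1. A match is a description of letters in this window and not a measured binding site.

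A20 and its partner ABIN1 are the ubiquitin-editing arm of the set. Tnfaip3, the gene of A20 (probe at chr10:18722874-18722933, minus strand, in the scanner files' own coordinates; their build: not given in the sources used here), had levels of 6.20, 6.30, 6.15 and 6.40 in the 4 LPS arrays labelled fld, against 4.05, 3.80, 3.97 and 3.50 in the untreated ones. In control cells its levels were 6.15, 6.28, 5.95 and 6.16 with LPS, against 3.69, 3.31, 3.18 and 3.21 without. The 8 LPS arrays lay between 5.95 and 6.40, far above every untreated array, and the lowest untreated array labelled fld, replicate 4, lay inside the range of the untreated control arrays. The change was 2.43 (SE 0.14, adjusted p = 2.93e-08), a 5.40-fold rise, in cells labelled fld, and 2.79 (SE 0.14, adjusted p = 7.18e-09), a 6.91-fold rise, in control cells. By size of the moderated t it ranked 12 and 8 among all features in these comparisons.

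Tnip1, the gene of ABIN1, had levels of 6.36, 6.14, 6.35 and 5.60 in LPS-treated and of 4.13, 4.14, 4.10 and 3.66 in untreated cells labelled fld. The control levels were 6.05, 6.19, 6.13 and 6.15 with LPS and 3.62, 3.41, 3.78 and 3.92 without. Replicate 4 labelled fld was the lowest array of its group both with and without LPS, and no LPS array overlapped an untreated one. Tnip1 rose by 2.11 (SE 0.17, adjusted p = 5.41e-07), or 4.31-fold, in cells labelled fld and by 2.45 (SE 0.17, adjusted p = 1.28e-07), or 5.45-fold, in control cells.

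Cyld, a deubiquitinase that removes lysine-63-linked and linear chains, was the only one of the 10 that fell. Its levels were -0.79, -0.56, -0.83 and -0.85 with LPS and -0.20, -0.09, -0.03 and -0.05 without in cells labelled fld, and -0.55, -0.61, -0.76 and -0.64 with LPS and -0.17, -0.51, -0.27 and -0.29 without in control cells. The groups did not overlap within either genotype, although control replicate 2 without LPS lay close to the LPS arrays. The change was -0.67 (SE 0.10, adjusted p = 0.000126) in cells labelled fld and -0.33 (SE 0.10, adjusted p = 0.0197) in control cells. The control call was lost without untreated control replicate 1 (-0.28, adjusted p = 0.0596), without LPS control replicate 3 (-0.29, adjusted p = 0.0535) and with each array scaled to its median (-0.35, adjusted p = 0.0725). A second Cyld probe, nearer the end of the gene at chr8:87344099-87344158 (first probe at chr8:87340056-87340115, both plus strand, file coordinates), fell by 1.16 in cells labelled fld (adjusted p over all probes = 2.98e-05) and by 0.66 in control cells (0.00289). The third Cyld probe, at chr8:87297889-87297948, had changes of -0.43 and -0.57 that did not pass (adjusted p = 0.214 and 0.122).

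Tank, the adaptor that restrains TRAF6 and TRAF3 signalling, showed a small change. In cells labelled fld its levels were 3.48, 3.69, 3.56 and 3.59 with LPS and 3.70, 3.59, 3.60 and 3.37 without, overlapping fully, with a change of 0.02 (SE 0.09, adjusted p = 0.885, 95% interval -0.17 to 0.21). In control cells the levels were 3.59, 3.65, 3.69 and 3.73 with LPS and 3.25, 3.12, 3.28 and 3.13 without, with no overlap, and Tank rose by 0.47 (SE 0.09, adjusted p = 0.00123), or 1.38-fold. The untreated arrays labelled fld thus already lay near the LPS levels of the control cells. The second Tank probe changed by -0.18 in cells labelled fld (adjusted p over all probes = 0.286) and by 0.36 in control cells (adjusted p = 0.0619), neither past the threshold.

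Of 19 genes for A20 and CYLD partners and the ubiquitin machinery, all of them measured, 4 rose and 4 fell with LPS in cells labelled fld and 5 rose and 0 fell in control cells, with medians of 0.15 and 0.17. Over all features, 39.6% and 29.4% were called in either direction in these comparisons. The largest rise was that of Tnip3, the gene of ABIN3, another A20-binding protein, by 2.72 (adjusted p = 2.32e-07) in cells labelled fld and 2.82 (adjusted p = 1.34e-07) in control cells. Tax1bp1, the gene of an adaptor that A20 needs for restraining TRAF6, rose by 1.11 and 1.35. Birc3, the gene of the ubiquitin ligase cIAP2, rose by 0.32 in cells labelled fld (adjusted p = 0.0492) and 0.61 in control cells (adjusted p = 0.00145), and Traf2, the gene of a TNF receptor adaptor, by 0.34 (adjusted p = 0.0244) and 0.40 (adjusted p = 0.0128). The largest falls called in cells labelled fld were those of Ikbkg, which encodes the IKK subunit NEMO (-0.87, adjusted p = 0.01), and Birc2, which encodes the ligase cIAP1 (-0.55, adjusted p = 0.00213). Without the arrays labelled fld replicate 4 the counts were 4 rises and 4 falls, and 7 rises and 1 fall, in the same order. The genes differed, since in cells labelled fld Traf2 (0.30, adjusted p = 0.0939) and Birc3 (0.26, adjusted p = 0.0931) no longer passed while Tnip2 (0.35) and Ripk1 (0.27) did. Among 8 TANK partners and IKK-related kinases, 2 rose and none fell in each genotype, beside the same 39.6% and 29.4% of all features. They were Traf3 (0.63 in cells labelled fld, 0.71 in control cells) and Optn (0.48 and 0.54), genes of an adaptor and of a ubiquitin-binding protein. Without those 2 arrays the list still had 2 rises in each genotype, but in cells labelled fld Optn no longer passed (0.40, adjusted p = 0.174) and Ikbke, the gene of IKK-epsilon, did (1.01, adjusted p = 0.0172).

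Malt1, the gene of the paracaspase, had levels of 4.34, 4.60, 4.68 and 4.23 with LPS and 3.11, 3.13, 3.23 and 2.93 without in cells labelled fld. In control cells they were 4.62, 4.45, 4.14 and 4.51 with LPS and 2.85, 2.12, 2.61 and 2.19 without. The 8 LPS arrays of both genotypes shared 1 range, and every untreated array labelled fld lay above every untreated control array, as in 13.3% of all features. Malt1 rose by 1.36 (SE 0.17, adjusted p = 2.35e-05), or 2.57-fold, in cells labelled fld and by 1.99 (SE 0.17, adjusted p = 7.73e-07), or 3.97-fold, in control cells. On the second Malt1 probe the rises were 1.54 and 1.72. Of the other proteins of its signalling complex, 4 of 5 listed genes were measured: Card14 (0.97, adjusted p = 0.00114) and Card10 (0.50, adjusted p = 0.0234) rose in cells labelled fld, and Bcl10 (0.53, adjusted p = 0.014) rose in control cells. Higher with LPS over all features were 21.6% in cells labelled fld and 14.5% in control cells. Card10 and Card14 encode CARD scaffolds and Bcl10 the adaptor that binds MALT1. Without the arrays labelled fld replicate 4 the list had 1 rise in each genotype.

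**Figure D2:**
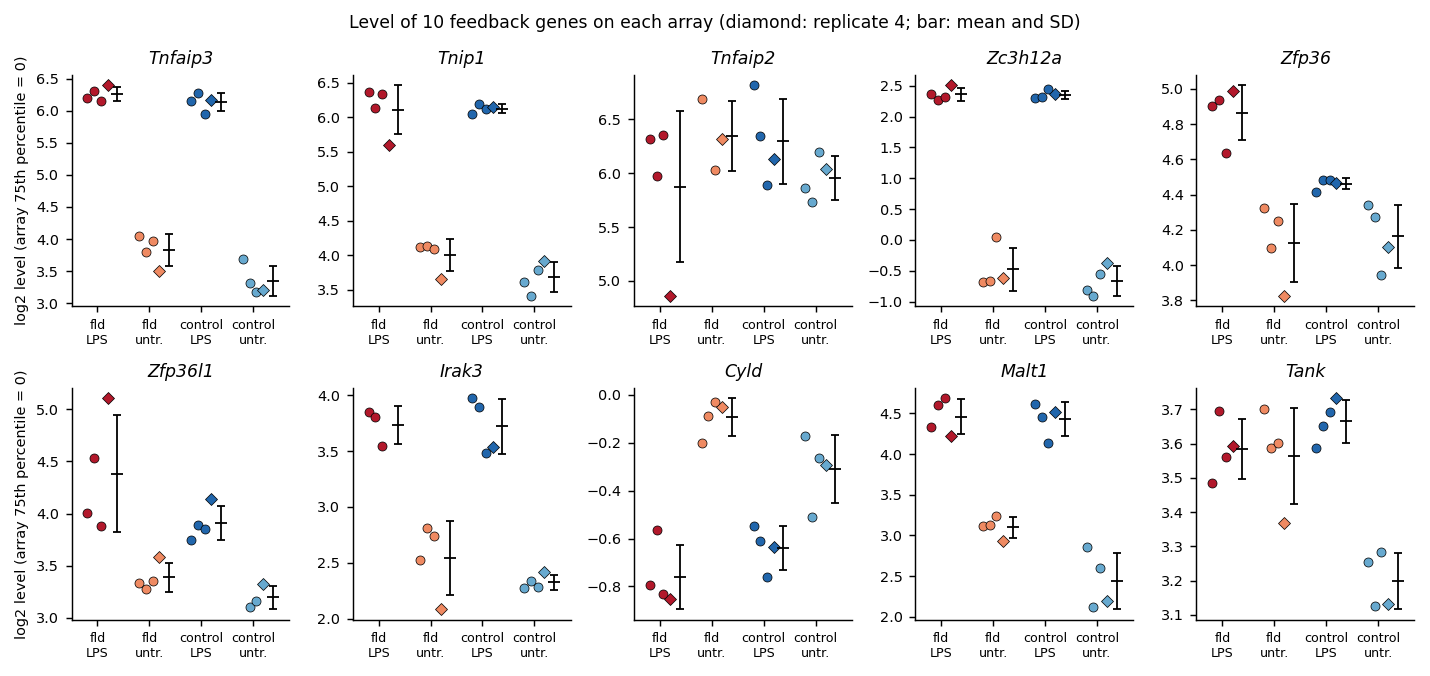
Log2 level of each gene on each of the 16 arrays (0 is the 75th percentile of an array), with the mean and SD of each group as a bar; diamonds are replicate 4 and the vertical scale differs between panels. LPS arrays of Tnfaip3, Tnip1, Zc3h12a, Zfp36, Zfp36l1, Irak3 and Malt1 lie above untreated arrays in both genotypes, those of Cyld lie below in both, and those of Tank lie above in control cells only. Of all features, 20.9% in cells labelled fld and 16.6% in control cells had every LPS array above every untreated one. Untreated arrays labelled fld of Malt1 and Tank lie above the untreated control arrays, as in 13.3% of all features.

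Among the genes for mRNA decay, Zc3h12a, which encodes the endoribonuclease regnase-1, showed the largest rise of the 10. With LPS its levels were 2.37, 2.26, 2.31 and 2.51 in cells labelled fld and without it -0.68, -0.66, 0.05 and -0.62. In control cells they were 2.30, 2.32, 2.44 and 2.36 with LPS, against -0.81, -0.91, -0.56 and -0.38 without. The 8 LPS arrays lay between 2.26 and 2.51, while the untreated arrays spread more, with replicate 3 labelled fld standing above the rest. The change was 2.84 (SE 0.16, adjusted p = 2.31e-08), or 7.17-fold, in cells labelled fld and 3.02 (SE 0.16, adjusted p = 9.52e-09), or 8.11-fold, in control cells.

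Zfp36 encodes tristetraprolin, which binds AU-rich elements of mRNAs such as that of TNF. Its levels were 4.90, 4.93, 4.64 and 4.99 with LPS and 4.33, 4.10, 4.25 and 3.83 without in cells labelled fld, a rise of 0.74 (SE 0.12, adjusted p = 0.000344) or 1.67-fold. In control cells they were 4.42, 4.48, 4.48 and 4.46 with LPS and 4.34, 4.27, 3.94 and 4.10 without, a change of 0.30 (SE 0.12, adjusted p = 0.0838) that did not pass although the groups did not overlap. With normexp background it did pass (0.36, adjusted p = 0.0271). Each LPS array labelled fld lay above each LPS control array, as in 17.7% of all features. The second Zfp36 probe gave 0.74 in cells labelled fld (adjusted p over all probes = 0.000183) and 0.30 in control cells (0.0622).

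Zfp36l1, the gene of a relative that recognises the same elements, had levels of 4.0, 4.54, 3.89 and 5.10 with LPS and 3.34, 3.28, 3.35 and 3.59 without in cells labelled fld. In control cells they were 3.75, 3.89, 3.86 and 4.14 with LPS and 3.11, 3.16 and 3.32 without, replicate 1 being missing as a spot flagged as an outlier. The spread was widest in LPS-treated cells labelled fld, where replicate 4 was highest, and LPS and untreated groups did not overlap in either genotype. Zfp36l1 rose by 0.99 (SE 0.21, adjusted p = 0.00239) in cells labelled fld, or by 0.82 (adjusted p = 0.0027) without the arrays labelled replicate 4, and by 0.71 (SE 0.23, adjusted p = 0.0296) in control cells. The control call was lost without untreated control replicate 2 or 3 or LPS control replicate 2 or 4 (changes of 0.64 to 0.72, adjusted p of 0.0556 to 0.0873), with quantile normalization (0.60, adjusted p = 0.0657) and without the filter on dim probes (adjusted p = 0.0572). The second probe rose by 1.03 and 0.58.

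Of 20 further genes for RNA-binding proteins and mRNA decay, 19 were measured. In cells labelled fld 8 rose and 1 fell with LPS, and in control cells 5 rose and 2 fell, with medians of 0.13 and 0.17. These counts stand beside the same 39.6% and 29.4% of all features. Arid5a, whose protein protects Il6 mRNA and opposes regnase-1, rose by 0.92 (adjusted p = 0.00294) in cells labelled fld and 0.90 (adjusted p = 0.004) in control cells. Mapkapk2, the gene of the kinase that phosphorylates and restrains tristetraprolin, rose by 0.75 and 0.81, and Zc3h12c, of the regnase family, by 0.62 and 0.91. The falls were those of Parn, a deadenylase gene, by 0.44 in cells labelled fld and 0.42 in control cells, and of Zfp36l2, the third tristetraprolin relative, by 0.64 in control cells. Without the arrays labelled fld replicate 4, 7 rose and 0 fell in cells labelled fld, and 5 rose and 2 fell in control cells.

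Irak3, the gene of IRAK-M, had levels of 3.85, 3.81 and 3.54 with LPS (replicate 4 is missing, as a spot flagged as an outlier) and 2.53, 2.81, 2.74 and 2.09 without in cells labelled fld. In control cells they were 3.97, 3.89, 3.48 and 3.53 with LPS and 2.28, 2.33, 2.28 and 2.42 without. No LPS array overlapped an untreated one, and the untreated arrays labelled fld spread more widely than the untreated control arrays. Irak3 rose by 1.19 (SE 0.17, adjusted p = 0.000147), or 2.28-fold, in cells labelled fld and by 1.39 (SE 0.16, adjusted p = 2.2e-05), or 2.63-fold, in control cells. The other 2 Irak3 probes gave 1.02 and 1.05 in cells labelled fld and 1.36 and 1.37 in control cells, all past the threshold. Of 11 IRAK and MyD88 signalling genes, 1 rose and 1 fell in cells labelled fld and 3 rose and 1 fell in control cells, with medians of -0.12 and 0.17. Calls in either direction over all features came to 39.6% and 29.4%. Tollip, the gene of an inhibitor of IRAK1, rose by 0.58 and 0.52 and Irak1 fell by 0.36 and 0.34, in cells labelled fld and control cells in that order, and Myd88 (0.83) and Tirap (0.44), both adaptor genes, rose in control cells.

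Tnfaip2, a gene known to be induced by TNF in endothelial and myeloid cells, did not pass in any of the 5 comparisons. Its levels were 6.32, 5.98, 6.36 and 4.86 with LPS and 6.69, 6.04 and 6.31 without (replicate 2 missing) in cells labelled fld, and 6.82, 6.35, 5.89 and 6.13 with LPS and 5.86, 5.73, 6.20 and 6.04 without in control cells. The groups overlapped throughout, and LPS replicate 4 labelled fld was the lowest of the 15 values. The change was -0.47 (SE 0.32, adjusted p = 0.253, 95% interval -1.15 to 0.21) in cells labelled fld and 0.34 (SE 0.29, adjusted p = 0.429, 95% interval -0.29 to 0.97) in control cells. Without the arrays labelled fld replicate 4 the change in cells labelled fld was -0.15.

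**Figure D3:**
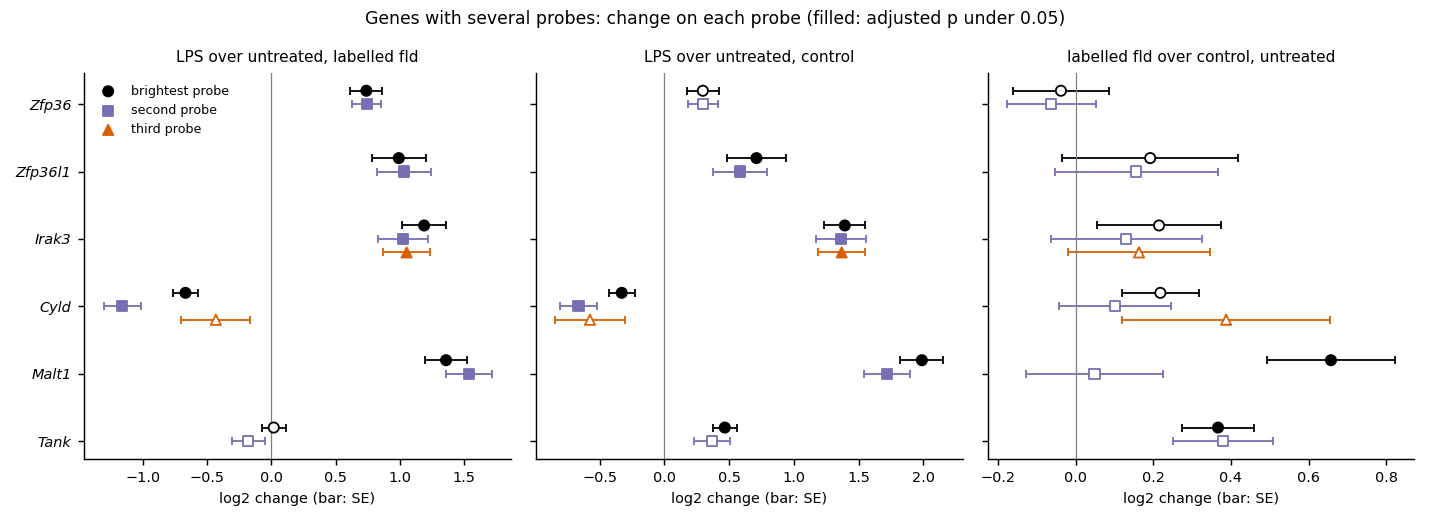
Log2 change on each kept probe of the 6 genes with several probes, with SE bars. The panels show LPS over untreated in cells labelled fld (left), the same in control cells (middle) and untreated cells labelled fld over untreated control cells (right). Filled marks have an adjusted p under 0.05 over all kept probes, for black circles (the brightest probe) as for the others. Probes of Zfp36, Zfp36l1 and Irak3 lie close together in each panel, while the 2 Malt1 probes part in the right panel, at 0.66 and 0.05.

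With LPS, the genotypes differed in 1 of the 10 genes, Zfp36, against 17.0% of all features, 16.1% being higher in cells labelled fld. Zfp36 was higher in LPS-treated cells labelled fld than in LPS-treated control cells by 0.40 (SE 0.12, adjusted p = 0.0332), with means of 4.87 ± 0.16 and 4.46 ± 0.03 (SD, n = 4 each), and the second probe gave 0.38 (adjusted p over all probes = 0.0356). The call was lost without both arrays labelled fld replicate 4 (0.36, adjusted p = 0.0544), without any single LPS control array or LPS array 1, 2 or 4 labelled fld (0.36 to 0.41, adjusted p of 0.0587 to 0.0925), with normexp background (0.21, adjusted p = 0.24) and with each array scaled to its median (0.0043, adjusted p = 0.98). The scaling matters here, since against the array median the median of all features shifted to -0.37, and 1998 features were higher and 6451 lower in cells labelled fld, in place of 2807 higher and 160 lower. The other 9 genes had differences between -0.42 (Tnfaip2) and 0.47 (Zfp36l1, adjusted p = 0.164), with those of Zc3h12a and Irak3 at 0.01. The 95% intervals for Zc3h12a, -0.32 to 0.34, and for Tnfaip3, -0.17 to 0.42 hold for the scaling to the 75th percentile only: scaled to the array median the differences were -0.39 and -0.27, outside them. Summed markers of T cells and neutrophils (linear scale) also stood apart between the genotypes with LPS, without overlap. The 3 T cell markers on the array were at 0.776 to 2.15 in cells labelled fld and 0.565 to 0.722 in control cells. The neutrophil markers were at 18.8 to 26.4 and 8.71 to 15.3 in that order. Those of macrophages, B cells, mast cells and mesothelial cells overlapped between the genotypes with LPS. In untreated cells the T cell markers were at 0.748 to 1.09 in cells labelled fld and 0.636 to 0.856 in control cells, which overlap. Here too the neutrophil sum mostly follows S100a8, and a missing spot adds nothing to a sum. The part of these markers in the results between genotypes was not tested.

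Without LPS, 2 of the 10 genes, Malt1 and Tank, were higher in cells labelled fld than in control cells, against 5.08% of all features in either direction and 4.87% that were higher. The median difference of the 10 was 0.27, against 0.06 over all features. Malt1 was higher by 0.66 (SE 0.17, adjusted p = 0.0319), or 1.58-fold, with means of 3.10 ± 0.13 and 2.44 ± 0.35 (SD, n = 4 each). The second Malt1 probe differed by 0.05 (SE 0.18, adjusted p over all probes = 0.939), so the 2 probes of this gene disagree. Tank was higher by 0.37 (SE 0.09, adjusted p = 0.0297), or 1.29-fold, with means of 3.57 ± 0.14 and 3.20 ± 0.08 (SD, n = 4 each), and the second Tank probe gave 0.38 (adjusted p over all probes = 0.13). The Malt1 call was lost without any single untreated array labelled fld or untreated control array 2, 3 or 4 (0.55 to 0.72, adjusted p of 0.0501 to 0.111). The Tank call was lost without untreated array 1, 2 or 3 labelled fld or untreated control array 2, 3 or 4 (0.32 to 0.39, adjusted p of 0.0511 to 0.118). Both were also lost with normexp background (adjusted p = 0.135 and 0.0597) and without the filter on dim probes (adjusted p = 0.0526 and 0.0592). With each array scaled to its median the differences were 0.48 for Malt1 (adjusted p = 0.182) and 0.19 for Tank (adjusted p = 0.433), where the median of all features shifted to -0.12 and the features called were 651 higher and 113 lower, in place of 850 higher and 37 lower.

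Whether the untreated difference of A20 passed depended on which arrays were used. Tnfaip3 had means of 3.83 ± 0.24 in untreated cells labelled fld and 3.35 ± 0.23 in untreated control cells (SD, n = 4 each), a difference of 0.48 (SE 0.14, adjusted p = 0.0577) that did not pass. Without both arrays labelled fld replicate 4 it was 0.59 (SE 0.13, adjusted p = 0.0193). It also passed by limma when 1 array was left out, that being untreated control replicate 1 (0.59, adjusted p = 0.0214), untreated replicate 4 labelled fld (0.59, adjusted p = 0.0322) or LPS replicate 4 labelled fld (0.48, adjusted p = 0.0412). Tnip1 likewise gave 0.32 (adjusted p = 0.329) with all arrays and 0.44 (adjusted p = 0.0417) without these 2. With them left out 4 of the 10 genes, Tnfaip3, Tnip1, Malt1 and Tank, were higher in untreated cells labelled fld, against 6.37% of all features, and with LPS 0 of the 10 differed, against 13.2% of all features. Zfp36 (-0.04 with all arrays, 0.06 without the 2) and Zc3h12a (0.19, adjusted p = 0.596) did not pass in either case.

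**Figure D4:**
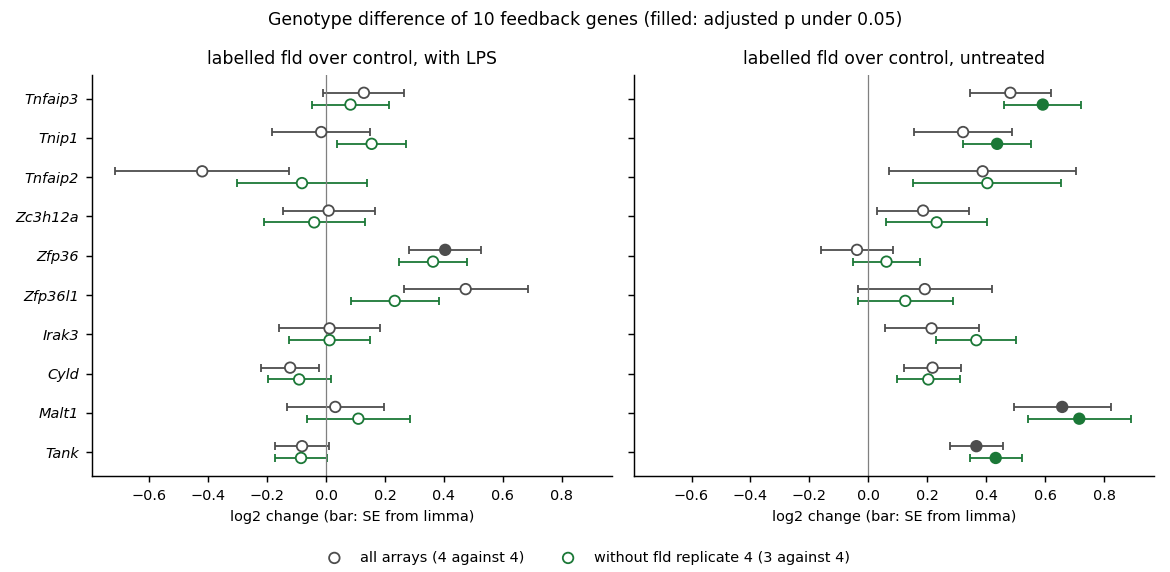
Log2 difference between cells labelled fld and control cells, with LPS (left) and untreated (right), over all arrays (grey) and without the 2 arrays labelled fld replicate 4 (green), with SE bars from limma; filled marks have an adjusted p under 0.05. Among untreated cells Malt1 and Tank are filled in both settings and Tnfaip3 and Tnip1 only without the 2 arrays, while under LPS Zfp36 alone is filled, and only over all arrays.

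The LPS responses themselves were compared as the change in cells labelled fld minus that in control cells. None of the 10 genes passed by limma after adjustment, and 0 of all features did. Before adjustment 1629 features (9.33%) had p under 0.05, and so had 4 members. These were Tank (-0.45, adjusted p = 0.265), Malt1 (-0.63, adjusted p = 0.411), Zfp36 (0.44, adjusted p = 0.431) and Cyld (-0.34, adjusted p = 0.448), by limma. Quantile normalization gave 14 adjusted calls over all features and array median scaling 7, none of them among the 10. For Tnfaip3 the difference was -0.35 (95% interval -0.77 to 0.06) and for Zc3h12a -0.18 (95% interval -0.65 to 0.29). Of the 10 differences 8 were negative, with a median of -0.34, against 0.00 over all features. These differences share their arrays with the comparisons above and are no separate evidence.

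Differences of listed partners between genotypes stand beside 17.0% of all features called with LPS and 5.08% untreated. Without the arrays labelled fld replicate 4 these shares were 13.2% and 6.37%. In the MALT1 complex 2 of the 4 measured genes were higher in LPS-treated cells labelled fld than in LPS-treated control cells. They were Card14 (1.17, adjusted p = 0.000694) and Card10 (0.62, adjusted p = 0.0133), and both passed without the arrays labelled fld replicate 4 as well (0.98 and 0.45). Irak2, which encodes an IRAK kinase family member, was higher in untreated cells labelled fld by 0.67 (adjusted p = 0.0485), or by 0.70 (adjusted p = 0.054) without those 2 arrays. Without them, Myd88 was higher in untreated cells labelled fld (0.48, adjusted p = 0.0373) and Peli2, the gene of an IRAK ubiquitin ligase, in LPS-treated ones (0.62, adjusted p = 0.0288). None of the 19 A20 and CYLD partners, the 8 TANK partners or the 19 measured mRNA decay genes passed in either comparison of genotypes, with all arrays or without the 2.

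The features whose levels ran most like Tnfaip3 over the 16 arrays, by Pearson correlation, were Tlnrd1 (0.991), Has1 (0.990), Csf2 (0.989), Ptpn2 (0.988) and Il1a (0.986). For Zc3h12a they were Csf3 (0.998), Il19 (0.994), Pfkfb3 (0.994), Steap4 (0.991) and Has1 (0.990). The arrays fall into LPS and untreated clusters, so these values mostly state that the genes share a large LPS change.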

How the data were processed

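RNA of adherent peritoneal cells was measured on 16 single-colour Agilent arrays. The deposited scanner files hold intensity values. Their headers name Agilent Feature Extraction 9.5.1.1 and design 014868, and show that the authors' processed intensity was corrected for background, dim spots receiving a surrogate value. The deposited value table equals that intensity divided by the array median.

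Here log2 of the processed intensity minus each array's 75th percentile over spots that are not controls was used. Spots flagged as outliers (1.34%) were set to missing. Of 41174 probes, the 25535 that exceeded background on each of the 4 arrays of some group were kept, and the brightest probe stood for a gene. Probe names were updated by accession, symbol or synonym through a RefSeq gene table of GRCm38.p6. Probes named Reg1 or Brf1 belong to other genes and were not taken as synonyms of Zc3h12a or Zfp36l1.

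The 5 comparisons were fitted with limma 3.58.1 in R 4.3.3 (1 mean per group, all 16 arrays, two-sided, Benjamini-Hochberg over all features). The fit was tested on simulated data. Alternatives were normexp background (offset 50), quantile normalization, array median scaling, the value table, no filter, the mean over probes, a replicate block and leaving out arrays. Precision is limited by the number of arrays.

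The members, lists and settings were chosen with earlier results of these data known. Named are all members and probes, up to 3 called genes of a list in its main direction and 2 in the other per LPS comparison, those called between genotypes, and the 5 features most like Tnfaip3 and Zc3h12a. A planned comparison of zinc finger proteins was not made, and no promoter of Malt1 was used here.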

Additional observations from a re-analysis of the deposited data

Results flagged for a closer look

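In each group of 4 arrays with no missing value, the gap between an extreme array and its nearest neighbour was set against the whole range of the group and compared with Dixon's 95% critical value. Of 37 such sets of the 10 genes 2 passed it, and chance passes about 1 in 20. Tnip1 on untreated array 4 labelled fld stood at 3.66, below 4.10 to 4.14 on the other 3 arrays of that group. Zc3h12a on untreated array 3 labelled fld stood at 0.0507, above -0.68 to -0.62 on the other 3. The cause of either was not tested.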

How the results depend on the processing

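Of the values of single genes under other settings, 1105 kept their direction and side of the threshold, 44 lost and 14 gained a call, and 37 changed sign, none of the 37 being a call. The counts include settings that left out an array from a group outside the comparison. There the change itself cannot move, and only its p-value can. Array median scaling and the deposited value table gave the same values but are counted apart, so the share that stayed the same overstates how firm the results are. The LPS rises of Tnfaip3, Tnip1, Zc3h12a, Irak3 and Malt1 passed under every setting run. In untreated cells labelled fld against control, calls among the 10 genes numbered 0 with normexp background, array median scaling, the deposited value table or no filter on dim probes, 1 with quantile normalization or the mean over probes, 4 without both arrays labelled fld replicate 4, and 0 to 3 when 1 array was left out. Over all features this comparison gave 37 calls with normexp background, 552 with quantile normalization and 354 to 1615 when 1 array was left out. With LPS, calls among the 10 genes numbered 0 with normexp background or without both arrays labelled fld replicate 4, 3 with array median scaling or the value table (Tnfaip2 at -0.82, Cyld at -0.52 and Tank at -0.48), and 0 to 2 when 1 array was left out. Over all features, 8449 were called with array median scaling or the value table, and quantile normalization gave 1826 higher and 653 lower. For the difference of the LPS responses 14 features were called with quantile normalization, 7 with array median scaling or the value table and 0 to 1 when 1 array was left out. The cause of these shifts was not tested.

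Sign changes among differences that were not called were as follows. Tank in cells labelled fld with LPS over untreated stood at -0.13 with normexp background, -0.22 with array median scaling or the value table, -0.0803 with the mean over probes, -0.0502 without both arrays labelled fld replicate 4, and -0.0467 to 0.0644 when 1 array was left out. Zfp36 in untreated cells labelled fld against control stood at 0.0615 without those 2 arrays and at -0.11 to 0.0615 when 1 was left out. With LPS, array median scaling or the value table gave -0.27 for Tnfaip3, -0.39 for Zc3h12a, -0.29 for Irak3 and -0.37 for Malt1, where the median of all features was -0.37. The mean over probes gave -0.15 for Irak3, 0.00303 for Cyld and -0.0532 for Malt1, and normexp background gave -0.0049 for Zc3h12a. Without both arrays labelled fld replicate 4, Tnip1 stood at 0.15 and Zc3h12a at -0.0403. When 1 array was left out, Tnip1 ranged over -0.10 to 0.15, Zc3h12a over -0.0403 to 0.0421, Irak3 over -0.0675 to 0.11 and Malt1 over -0.0665 to 0.11.

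Same-numbered untreated and LPS arrays deviated together with correlations of 0.161, 0.0898, 0.258 and 0.0891 in control cells and -0.082, -0.0854, -0.101 and 0.202 in cells labelled fld. Different-numbered arrays ranged over -0.257 to 0.213 in control cells and -0.418 to 0.376 in cells labelled fld. Since not every same-numbered pair exceeded 0.1, the numbers were not taken to pair the arrays. All 4 same-numbered values in control cells were positive, so whether the control arrays are paired is not settled here. The labels do not say whether a number marks 1 mouse. With the replicate block (consensus correlation 0.117), the LPS difference of Irak3 between genotypes stood at -0.0061 and no count of calls moved by over 1.5 times: 2818 features were higher and 160 lower in LPS-treated cells labelled fld than in LPS-treated control cells.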

Other observations

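Of 19 transcripts known as targets of tristetraprolin or regnase-1, all measured, 17 rose and 0 fell with LPS in cells labelled fld and 15 rose and 0 fell in control cells, with median log2 changes of 2.12 and 2.26, against 0.06 and 0.03 over all features. The share of all features that were higher with LPS was 21.6% in cells labelled fld and 14.5% in control cells. Csf2, the gene of GM-CSF, rose by 8.13 (adjusted p = 2.88e-07, limma) in cells labelled fld and by 9.61 (adjusted p = 6.13e-08) in control cells. Lcn2, the gene of lipocalin-2, rose by 4.61 and 5.23. Il23a, a subunit gene of interleukin-23, stayed not well above background throughout the untreated arrays of both genotypes, so its rise is a bound, at least 8.34-fold in cells labelled fld and at least 15.1-fold in control cells. Between genotypes, Il2, the gene of a T cell growth factor, was higher in cells labelled fld with LPS (1.32, adjusted p = 5.79e-05) and untreated (0.72, adjusted p = 0.00692), and both held without the arrays labelled fld replicate 4 (1.28 and 0.74). The summed T cell markers were 0.776 to 2.15 in LPS-treated cells labelled fld and 0.565 to 0.722 in LPS-treated control cells, and 0.748 to 1.09 and 0.636 to 0.856 in untreated cells in that order; their part in the Il2 difference was not tested. With LPS, Tnfrsf4, a TNF receptor family gene, was higher by 0.51 (adjusted p = 0.0393) and Il23a lower by 0.88 on the log2 scale (change -0.88, adjusted p = 0.0376) in cells labelled fld. Neither of these 2 calls held without the arrays labelled fld replicate 4 (adjusted p = 0.0997 and 0.105).

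Of 9 genes for NF-kB subunits and IkB proteins, 7 rose with LPS in cells labelled fld and 8 in control cells, and none fell. Without the arrays labelled fld replicate 4, 5 rose in cells labelled fld and 9 in control cells. Among all features, 21.6% were higher with LPS in cells labelled fld and 14.5% in control cells. Nfkbia, the gene of the inhibitor IkB-alpha, rose by 1.64 (adjusted p = 4.56e-06) and 1.72 (adjusted p = 3.65e-06), and Nfkb2, of the p100 precursor, by 0.91 and 1.30. Bcl3, of a nuclear IkB protein, rose by 0.87 and 0.83, and Nfkb1, of the p105 precursor, by 0.64 and 1.19, in cells labelled fld and control cells in that order. Nfkb1 was also higher in untreated cells labelled fld than in untreated control cells (0.39, adjusted p = 0.0381), as it was without the arrays labelled fld replicate 4 (0.41, adjusted p = 0.0388).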
